A study of Mus musculus with 8 samples.

Results

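Messenger RNA levels were compared between a library of intestinal crypts from mice that had lost Setdb1 in the gut epithelium, titled VEMD3, and a library of crypts from control mice, titled WT. A gene was taken if its mean over the 6 crypt libraries of the study reached 1 FPKM (fragments scaled to gene length and to the size of the library), which held for 10862 of the 16958 genes with values, and the difference was expressed as the log2 ratio of VEMD3 to WT after 1 FPKM was added to both. These are 2 of the 8 samples of the series, which also holds crypt libraries VEMD2, VEMD4, VEMD6 and VEMD8 and 2 libraries of intestinal stem cells that were not analysed here. The WT crypts carried Setdb1 alleles flanked by loxP sites (setdb1fl/fl), and the VEMD3 crypts carried the genotype setdb1 iIEC-KO, with Cre recombinase driven by the Villin promoter, which is active in the epithelium, and switched on by tamoxifen. All crypts came from C57BL/6 mice aged 8 weeks per the sample labels and 8 to 10 weeks per the treatment protocol, and the WT littermates also received the single oral dose of 800 mg/kg tamoxifen. The labels leave the letters VEMD unexplained and give no number of mice per library, so the title is used only as a name. With 1 library per group there is no replicate error, and no test between the groups was possible.

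SETDB1 adds methyl groups to lysine 9 of histone H3 and so silences endogenous retroviruses and some genes, together with KAP1 (Trim28) and zinc finger proteins that find the DNA. The intestinal epithelium is renewed from stem cells at the crypt base, whose progeny divide, then become absorptive enterocytes or secretory Paneth, goblet and enteroendocrine cells. Damage to DNA activates the transcription factor p53, which stops the cell cycle, starts repair or leads the cell to die.

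The targeted gene Setdb1 (identifier 84505) lies on chromosome 3 at 95323525 to 95357202 in GRCm38. Its level was 9.42 FPKM in WT against 7.03 in VEMD3, a log2 ratio of -0.38. It was lower still in VEMD2, VEMD4, VEMD6 and VEMD8, at 6.64, 5.49, 3.53 and 4.95. The size of the ratio depended on the scaling, at -0.50 when libraries were scaled to their median gene and -0.27 when they were scaled to the same sum. VEMD3 was thus below WT and was the highest of the 5 knockout libraries, and a value over the whole gene cannot show whether an exon was lost.

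In VEMD3, 652 tested genes (6.00%) were at least 2-fold higher than in WT and 502 (4.62%) were at least 2-fold lower. Of the higher genes, 121 were at least 4-fold and 34 at least 8-fold higher, and of the lower genes 93 and 16. The middle of the distribution moved little, since 65.8% of ratios lay within 0.5 of 0 and the quartiles were -0.22 and 0.43. The median ratio was 0.12, so that every ratio below is to be read against that shift. Scaled to the median gene, the counts were 498 higher (4.58%) and 635 lower (5.85%), and scaled to the same sum they were 935 (8.61%) and 460 (4.23%), so the higher genes made up 56.5%, 44.0% or 67.0% of all 2-fold differences. Near the threshold, 125 genes lay within 0.1 at or above a ratio of 1 and 139 within 0.1 below it. The higher genes had low WT levels, with a median of 3.21 FPKM in WT and 11.8 in VEMD3, and 155 of them were under 1 FPKM in WT, so that knockout libraries brought them past the filter. Genes near 2-fold can change sides with the scaling, as Mcm2, Hsp90aa1, Chga and Abhd4 below did with scaling to the median gene, and Casp1, Guca2b, Myo1a, Pls1, Olfm4 and S100g with scaling to the same sum. The lower genes had a median of 29.8 FPKM in WT and 8.95 in VEMD3. With 1 FPKM added, a gene under 1 FPKM in WT can come out 2-fold higher but not 2-fold lower. The contrast in WT levels between higher and lower genes is thus partly set by the rule, and the same limit holds for the gene lists below.

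**Figure D1:**
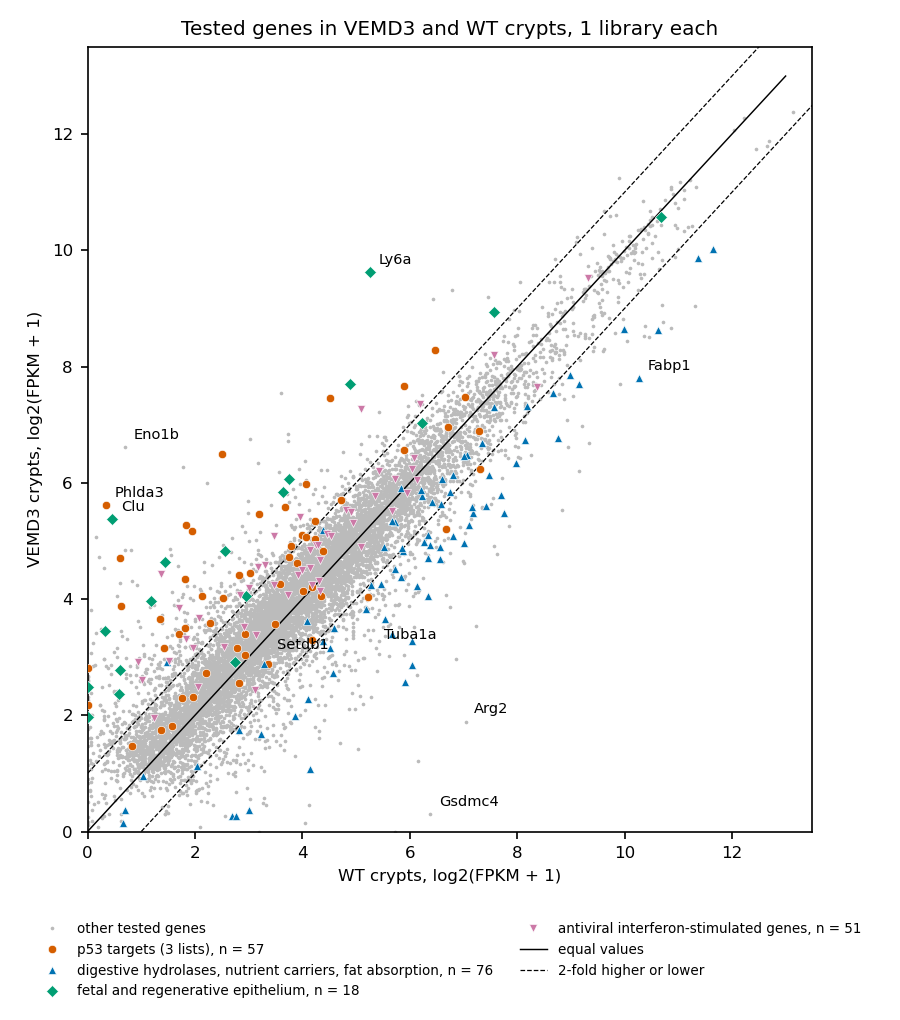
Each point is a tested gene, with its level in WT crypts on the horizontal axis and in VEMD3 crypts on the vertical axis, both as log2(FPKM + 1), 1 library each. Solid and dashed lines mark equal values and 2-fold differences, and coloured points mark the lists of p53 targets (n = 57, mostly above the line), absorptive genes (n = 76, mostly below it), regenerative genes (n = 18) and interferon-stimulated genes (n = 51).

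The libraries held epithelium in both cases. Epcam, the adhesion molecule of all gut epithelium, was at 1080.2 FPKM in WT and 785 in VEMD3, Krt8, an epithelial keratin, at 1923 and 2009.6, and Cdx2, which sets intestinal identity, at 108 and 73.0. None of 38 collagen and matrix genes reached the filter, with Col1a1 at 0.02 in both libraries. Markers of T and innate lymphocytes summed to 155.82 FPKM in WT and 161.25 in VEMD3, and those of macrophages, dendritic cells and neutrophils to 24.15 and 31.15. No tested member of either list was 2-fold from WT, and Cd79a, which defines B cells, was at 0.09 and 0.18. The sum over all genes was 585501 FPKM in WT and 534251 in VEMD3, and the depth is unknown because the table holds no counts. Reads of near copies of a gene and of overlapping genes may have been split between them, and how the authors' counting treated them or used strand is not given in the sources used here.

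Targets of p53 were largely higher in VEMD3 than in WT. Of 22 tested targets that act in cell cycle arrest or feedback, 13 were at least 2-fold higher and 2 lower, with a median ratio of 1.65 against 0.12 for all tested genes. Phlda3, an inhibitor of AKT, was at 0.27 FPKM in WT and 48.2 in VEMD3, with 21.6, 33.8, 0.36 and 0.12 in VEMD2, VEMD4, VEMD6 and VEMD8. Ccng1, the cyclin G1 gene, was at 21.98 in WT and 174 in VEMD3, with 116, 121, 22.7 and 22.8 in the other knockouts. Cdkn1a, which encodes the cell cycle inhibitor p21, was at 87.6 in WT and 311 in VEMD3, with 201, 295, 239.9 and 125 in the other knockouts. VEMD3 had the highest of the 6 values for all 3 genes, and for Phlda3 and Ccng1 the libraries VEMD6 and VEMD8 lay near WT while for Cdkn1a they lay above it.

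The promoters of Cdkn1a and Ccng1 are shown because both genes are classical p53 targets and both were over 3-fold higher in VEMD3. Each window spans the start of the gene in RefSeq (GRCm38.p6). Capitals mark exact matches to the searched pattern, 2 decamers with their spacer in Cdkn1a and a single decamer in Ccng1. The stretch just after the capitals in Cdkn1a and the one just before them in Ccng1 differ from the decamer at a single base. They stay in lower case, so the capitals need not cover the whole p53 element. The windows lie at chr17:29090729-29091028 on the plus strand and chr11:40755237-40755536 on the minus strand.
Cdkn1a: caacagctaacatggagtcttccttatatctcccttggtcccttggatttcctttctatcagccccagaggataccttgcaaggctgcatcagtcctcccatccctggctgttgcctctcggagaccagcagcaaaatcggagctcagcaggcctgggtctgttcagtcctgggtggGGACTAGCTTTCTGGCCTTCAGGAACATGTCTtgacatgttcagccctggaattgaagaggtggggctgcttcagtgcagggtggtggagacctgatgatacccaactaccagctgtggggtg
Ccng1: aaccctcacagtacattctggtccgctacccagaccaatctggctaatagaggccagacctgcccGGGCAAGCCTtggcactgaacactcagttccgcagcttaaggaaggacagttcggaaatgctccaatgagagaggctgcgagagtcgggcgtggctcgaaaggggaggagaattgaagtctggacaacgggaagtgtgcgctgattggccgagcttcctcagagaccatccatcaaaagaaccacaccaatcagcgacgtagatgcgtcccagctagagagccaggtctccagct
Both strands were searched for the p53 decamer without mismatches, and overlaps with other motifs were not removed. It occurred in the windows of 8.08% of the 8804 tested genes with a window, in 9.16% of those at least 2-fold higher in VEMD3 and in 7.73% of those at least 2-fold lower. Among the p53 targets, 12 of 45 with a window held it, namely Abhd4, Aen, Bax, Ccng1, Cdkn1a, Ckap2, Ei24, Gtse1, Mdm2, Polk, Sesn1 and Siva1. A pair of decamers at most 13 bases apart occurred in 4 of the 8804 windows (0.0454%), and Cdkn1a was the member of the p53 lists that held it.

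Most other arrest and feedback targets were also higher in VEMD3 than in WT. Plk2, a kinase that restrains the cell cycle after stress, was at 0.53 FPKM in WT and 25.1 in VEMD3, and Psrc1, a microtubule protein, at 2.55 and 37.7. Trp53inp1, which aids p53 activity, was at 2.84 and 35.0, Gtse1 at 8.20 and 43.3 and Zmat3, an RNA-binding protein, at 1.54 and 11.6. Mdm2, the ubiquitin ligase that degrades p53, reached 15.7 FPKM in WT and 62.4 in VEMD3, against 37.4, 49.1, 21.2 and 19.6 in VEMD2, VEMD4, VEMD6 and VEMD8. Sesn2, a stress sensor that restrains mTORC1, was at 2.52 and 19.23. The 2 lower members were Cgref1, at 101 and 35.9, and Sesn1, at 36.2 and 15.4. VEMD3 held the highest of the 6 values in 15 of the 22 arrest and feedback targets, against 28.4% of all tested genes.

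Among 18 p53 targets of cell death, 6 were at least 2-fold higher in VEMD3 and 1 lower, with a median ratio of 0.55. Bax, which opens the mitochondrial outer membrane, was at 58.7 FPKM in WT and 202 in VEMD3, with 134, 152, 32.9 and 39.1 in VEMD2, VEMD4, VEMD6 and VEMD8. Bbc3, which encodes the BH3 protein PUMA, was at 2.24 and 9.60, Aen, a nuclease of apoptosis, at 11.9 and 47.2, and Tnfrsf10b, the death receptor for TRAIL, at 6.06 and 20.2. Eda2r, a receptor for ectodysplasin A2, had a listed value of 0 in WT against 6.07 in VEMD3. Fas, the death receptor, was at 17.1 in WT and 8.78 in VEMD3, a ratio of -0.89, and Casp1, which the list also holds, at 158 and 74.6. In the group of 17 targets of repair and metabolism, 8 were at least 2-fold higher and none lower, with the highest of the 6 values in VEMD3 for 15. After scaling to the median gene 6 were higher. Of the 17, 3 were under 1 FPKM in WT, so that knockout libraries brought them past the filter. Ephx1, a microsomal epoxide hydrolase, was at 4.70 in WT and 89.0 in VEMD3, with 49.6, 56.4, 2.42 and 1.35 in the other knockouts. Gdf15, a secreted stress hormone, was at 0.54 and 13.7, and Polk, a polymerase that copies past DNA lesions, at 1.68 and 7.91.

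**Figure D2:**
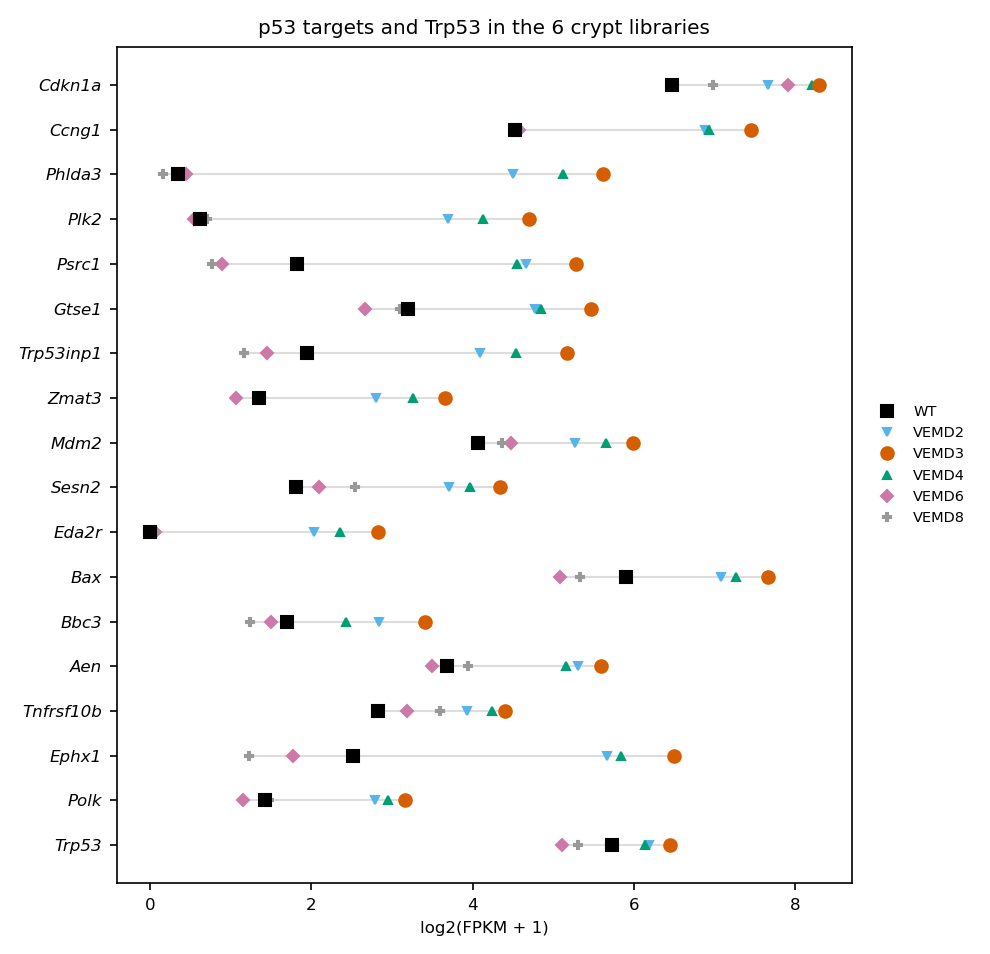
Levels of 17 p53 targets and of Trp53 in the 6 crypt libraries, as log2(FPKM + 1), 1 point per library. VEMD3 is rightmost in each row shown, WT, VEMD6 and VEMD8 are mostly to the left, and Trp53 itself spans a narrower range than most targets. The targets shown are a selection. VEMD3 was highest in 15 of 22 tested targets of arrest and feedback, 10 of 18 of cell death and 15 of 17 of repair and metabolism.

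Trp53 itself was at 51.8 FPKM in WT and 85.8 in VEMD3, a ratio of 0.72, and none of the 11 tested genes of the list that holds Trp53 and its regulators was 2-fold from WT, although all 11 ratios were above 0 (median 0.38). Genes of DNA repair and damage signalling had a median ratio of 0.30, and 1 of 28 was 2-fold higher. That gene was Msh6, a mismatch repair protein, at 14.4 FPKM in WT and 48.9 in VEMD3. Of 25 genes of DNA replication, 3 were 2-fold higher, and the list had a median of 0.44. Ccne2, which encodes cyclin E2, was at 5.61 and 18.2, Rrm2, a subunit of ribonucleotide reductase, at 29.7 and 68.01 and Mcm2, of the replicative helicase, at 19.3 and 39.7. None of 24 genes of G2 and mitosis was 2-fold from WT (median 0.21), with Plk1 at 47.2 and 60.3 and Ccnb1 at 41.9 and 53.3.

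Genes of absorptive cells were lower in VEMD3 crypts across digestion, nutrient uptake and fat handling. Of 21 tested hydrolases of the brush border, 14 were at least 2-fold lower and none higher, with a median ratio of -1.69 and the lowest of the 6 values in VEMD3 for 12, against 7.99% of all tested genes. Treh, which splits trehalose, was at 58.9 FPKM in WT and 4.93 in VEMD3, and Lct, lactase, at 65.1 and 6.25. Sis, sucrase-isomaltase, reached 170.4 in WT but 47.7 in VEMD3, against 217, 70.8, 164 and 185 in VEMD2, VEMD4, VEMD6 and VEMD8. Alpi, the intestinal alkaline phosphatase, reached 214 in WT but 43.7 in VEMD3, against 62.0, 148, 1585 and 925 in the other knockouts. Anpep, aminopeptidase N, reached 1015 in WT but 399 in VEMD3, against 705, 936, 3497 and 1496 in the other knockouts. For Sis, Alpi and Anpep VEMD3 was the lowest of the 6 libraries, and for Alpi and Anpep VEMD6 and VEMD8 were above WT. In bulk RNA, fewer cells of a type and less RNA per cell cannot be told apart.

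The peptidases Enpep and Dpp4 followed, at 143 and 43.8 and at 80.4 and 33.6 FPKM in WT and VEMD3. Among 17 structural genes of the brush border, 3 were 2-fold lower, or 7 when libraries were scaled to the median gene, with a median ratio of -0.77. These 3 were Espn, which bundles actin, at 44.9 and 17.1, Myo1a, a myosin that ties microvilli to the membrane, at 277 and 132, and Pls1, another actin bundler, at 244 and 119. Villin itself (Vil1) was at 575 in WT and 383 in VEMD3, a ratio of -0.58.

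Of 26 tested carriers of nutrients, 19 were at least 2-fold lower and none higher, with a median ratio of -1.28. Slc5a1, the sodium-glucose cotransporter SGLT1, was at 283 FPKM in WT and 105 in VEMD3, with 237, 155, 509.7 and 256 in VEMD2, VEMD4, VEMD6 and VEMD8. The fructose carrier Slc2a5 was at 22.6 in WT and 5.65 in VEMD3, and Slc2a2, the basolateral carrier of hexoses, at 19.8 and 8.67. Carriers of amino acids and peptides were Slc6a19, at 94.1 and 24.7, Slc6a20a, a carrier of proline, at 16.6 and 1.11, and Slc15a1, the peptide carrier PEPT1, at 69.3 and 17.7. Slc34a2, a phosphate carrier, was at 50.1 and 9.57, and Slc28a1, which takes up pyrimidine nucleosides, at 5.79 and 0.21. VEMD3 was the lowest of the 6 libraries for 14 of the 26.

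Fat absorption showed the same direction in 28 of 29 tested genes, 18 of which were at least 2-fold lower and 1 higher (median -1.30). Fabp1, which binds fatty acids in the cytosol, was at 1236 FPKM in WT and 221 in VEMD3, with 771, 433, 2825 and 1449 in VEMD2, VEMD4, VEMD6 and VEMD8. Fabp2, the intestinal form, was at 1586 and 394, and Rbp2, which binds retinol, at 1856 and 407. Genes of chylomicron assembly were lower too, with Mttp, which loads lipid onto apolipoprotein B, at 570.3 and 208, Apoa4 at 3196 and 1039.9, Apoc3 at 432 and 108 and Dgat1, which makes triglyceride, at 251.04 and 80.0. Cd36, a fatty acid receptor, was at 7.09 in WT and 0.29 in VEMD3, with 0.57, 0.21, 0.41 and 0.35 in the other knockouts. Cd36 was therefore low in all 5 knockouts, unlike Fabp1. The single higher member was Scarb1, the receptor for high-density lipoprotein, at 1.79 and 6.6.

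**Figure D3:**
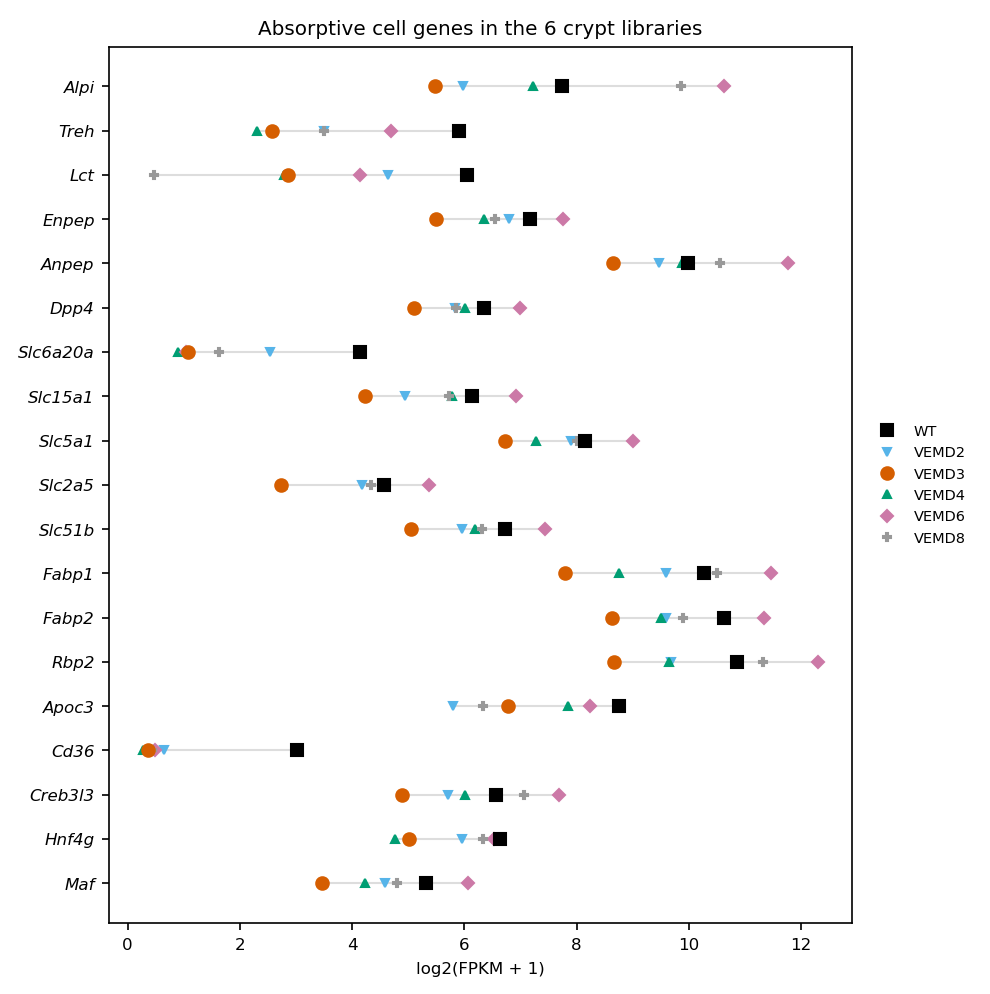
Levels of 19 genes of absorptive cells in the 6 crypt libraries, as log2(FPKM + 1), 1 point per library. VEMD3 (circles) is leftmost or next to leftmost in most rows, while VEMD6 (diamonds) lies to the right of WT (squares) for genes such as Alpi, Anpep and Fabp1.

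Transcription factors of absorptive cells were among the lower genes. Maf was at 38.6 FPKM in WT and 10.0 in VEMD3, Hnf4g, a nuclear receptor of enterocytes, at 98.1 and 31.5, and Klf4, a factor of differentiated cells, at 58.6 and 19.6. Creb3l3, which activates apolipoprotein genes, reached 93.1 in WT but 28.7 in VEMD3, against 51.2, 63.2, 205 and 133 in VEMD2, VEMD4, VEMD6 and VEMD8. These were 4 of 5 factors at least 2-fold lower among 26 tested intestinal factors, of which Foxa1 was 2-fold higher, at 6.41 and 15.5. The HNF4 motif CAAAGTCCA was present on either strand in the promoter windows of 0.591% of tested genes, of 0.585% of the higher genes and of 2.24% of the lower genes (9 of 401). Of 63 members of the 3 absorptive lists with a window, 3 held a match, namely Alpi, Slc3a1 and Treh.

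Bile acid, metal and ion handling moved in both directions. Slc51a and Slc51b, the 2 subunits of the basolateral bile acid exporter, were at 74.5 and 104 FPKM in WT and 19.6 and 32.2 in VEMD3. Slc10a2, which takes up bile acids in the ileum, was instead at 0.65 and 5.27, and Fabp6, the ileal bile acid binder, at 2.27 and 8.19. Vdr, the vitamin D receptor, was at 88.2 and 31.1 and S100g, its calcium-binding target, at 18.8 and 8.74. Of 20 carbonic anhydrases and channels, 9 were at least 2-fold lower and 1 higher, led by Car4, a membrane carbonic anhydrase, at 150.5 in WT and 10.6 in VEMD3, with 46.8, 41.1, 20.4 and 2.84 in VEMD2, VEMD4, VEMD6 and VEMD8. The higher member was Car12, at 5.53 and 14.9.

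Several enzymes of drug and retinoid metabolism were lower. Of 26 tested cytochrome P450 genes, 12 were at least 2-fold lower and 3 higher, with a median ratio of -0.82. Cyp3a25 was at 31.8 FPKM in WT and 1.67 in VEMD3, Cyp3a11 at 34.0 and 6.92 and Cyp2b10 at 28.2 and 6.22, all oxidases of foreign compounds. Cyp1a1, a target of the aryl hydrocarbon receptor, was at 0.93 in WT and 11.3 in VEMD3, with 1.19, 5.80, 95.5 and 21.6 in VEMD2, VEMD4, VEMD6 and VEMD8. Ugt1a1, which conjugates bilirubin, was at 69.3 and 5.50, the carboxylesterase Ces2a at 26.4 and 7.35 and the alcohol dehydrogenases Adh1 and Adh6a at 47.8 and 7.08 and at 188 and 29.0. Carboxylesterases had 4 of 8 tested members at least 2-fold lower (median -1.01), and the dehydrogenases of alcohol, aldehyde and retinoids 14 of 44 lower and 5 higher (median -0.62). The higher ones included the aldose reductase family member Akr1b8, at 8.03 and 80.3.

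Enzymes of oxidative stress and glutathione were split. Gsta3, a glutathione transferase, was at 0.63 FPKM in WT and 27.8 in VEMD3, Gsta4 at 15.7 and 65.4 and Gsta1, which has near copies, at 36.9 and 111, while Gstk1 was at 19.6 and 5.26. Of 23 transferases of this kind, 5 were at least 2-fold higher and 4 lower. Targets of NRF2, the regulator of the antioxidant response, had 6 of 23 higher and 1 lower, with a median of 0.28. Hmox1, heme oxygenase, was at 0.46 and 6.99 and Gclc, which starts glutathione synthesis, at 12.9 and 36.7. The lower member was catalase, at a ratio of -1.31. Selenop, a secreted selenium carrier, was at 646 in WT and 102 in VEMD3, with 138, 104, 96.0 and 21.1 in the other knockouts.

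Genes of fetal and regenerating epithelium had the highest list median. In this list 15 of 18 tested genes were 2-fold or more above WT and none below, with a median ratio of 2.24, and 6 of the 18 were under 1 FPKM in WT, so that knockout libraries brought them past the filter. Ly6a, the surface protein Sca-1, was at 37.3 FPKM in WT and 789.5 in VEMD3, with 368, 1075, 162 and 275 in VEMD2, VEMD4, VEMD6 and VEMD8. Clu, clusterin, went from 0.38 in WT to 40.6 in VEMD3, with 4.55, 77.2, 14.9 and 9.47 in the other knockouts. S100a6, a calcium-binding protein, was at 28.5 and 206, with 56.5, 450.2, 52.6 and 106 in the other knockouts. For all 3 genes VEMD3 came next below VEMD4, and all 5 knockouts lay above WT.

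Other members were Anxa3, a membrane-binding annexin, at 1.28 FPKM in WT and 14.6 in VEMD3, and Il1rn, the antagonist of interleukin 1, at 0.25 and 9.99. Il33, an alarmin, was at 4.89 and 27.5, and Cd44, the hyaluronan receptor, at 11.4 and 56.1. Anxa1 and Anxa8 had a listed value of 0 in WT against 2.94 and 4.59 in VEMD3. Plaur, the receptor of urokinase and outside this list, was at 0.77 and 18.9, and Krt23, a keratin, at 1.93 and 26.2.

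Ligands of the EGF receptor that stand side by side on chromosome 5 were higher together. Areg, amphiregulin, was at 12.5 FPKM in WT and 65.8 in VEMD3, Ereg, epiregulin, at 0.52 and 5.83 and Btc, betacellulin, at 2.10 and 10.2. Egfr, their receptor, was at 4.56 and 8.64, a ratio of 0.79. Etv4 and Etv5, transcription factors induced by ERK, were at 1.98 and 16.4 and at 1.45 and 5.29, and Dusp4, which inactivates ERK, at 1.35 and 7.25. In all, 6 of 17 genes of this pathway were at least 2-fold higher and none lower, with a median of 0.72. Areg and Ereg also belong to the regenerative list. Among 18 genes of the YAP and TEAD pathway 5 were higher and none lower (median 0.36), led by Ajuba, a LIM protein that binds LATS kinases, at 1.24 and 13.6.

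Receptors of the TNF family were higher in 9 of 12 tested members and 2-fold lower in none, with a median of 1.29. Tnfrsf12a, the receptor of TWEAK, was at 6.89 FPKM in WT and 50.8 in VEMD3, with 29.2, 46.3, 22.2 and 13.8 in VEMD2, VEMD4, VEMD6 and VEMD8. Tnfrsf1b, a receptor for TNF, was at 3.74 and 12.6, whereas Tnfrsf1a, the other TNF receptor, was at 70.5 and 47.5, a ratio of -0.56. Tgfbr2, the type II receptor of TGF-beta, was at 5.43 and 32.1. Of 18 integrins and laminins 5 were at least 2-fold higher, or 3 when scaled to the median gene, among them Lama5, a laminin chain of the basement membrane, at 0.41 and 4.33. Annexins and S100 proteins had 8 of 21 higher and 1 lower (median 0.74), and Anxa1, Anxa3, Anxa8 and S100a6 also belong to the regenerative list. In WT, 3 of the 18 integrins and laminins and 4 of the 21 annexins and S100 proteins were under 1 FPKM. Knockout libraries brought these past the filter.

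Markers of crypt base stem cells moved apart from each other. Of 24 tested markers, 9 were at least 2-fold higher and 1 lower with a median of 0.54, and 5 higher and 1 lower after scaling to the median gene. Lgr5, the receptor that defines these cells, was at 2.10 FPKM in WT and 0.71 in VEMD3, a ratio of -0.86, with 1.60, 1.07, 0.41 and 0.32 in VEMD2, VEMD4, VEMD6 and VEMD8. Olfm4, a secreted marker of the same cells, was at 574 and 276, the lower member of the list, with 479.9, 129, 154 and 300.4 in the other knockouts. By contrast Ascl2, a transcription factor of stem cells, was at 3.55 and 9.99, with 6.74, 7.31, 1.65 and 3.37 in the other knockouts. Igfbp4, which binds insulin-like growth factors, was at 4.72 and 29.5 and Msi1, an RNA-binding protein, at 3.54 and 9.85. VEMD3 held the highest of the 6 values for Ascl2, Igfbp4 and Msi1 and the fourth highest for Lgr5 and Olfm4.

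Targets of Wnt signalling, the pathway that maintains the crypt base, were at least 2-fold higher in 9 of 15 tested members and lower in none. The median was 1.02, and VEMD3 held the highest of the 6 values for 12. After scaling to the median gene, 6 were higher and the median was 0.89. Of the 15, 9 also belong to the stem cell list, among them 6 of the 9 higher ones. Tcf7, a factor that acts with beta-catenin, was at 2.13 FPKM in WT and 11.7 in VEMD3, Sp5 at 2.82 and 10.4 and Ephb3, a receptor that positions cells along the crypt, at 6.17 and 16.5. None of 10 tested ligands, receptors and effectors of the pathway was 2-fold from WT, with Ctnnb1, beta-catenin, at 271 and 298. Among 9 markers of reserve and revival stem cells 6 were higher and none lower, including Hopx, at 68.7 and 169, and Tert, the telomerase subunit, at 1.05 and 4.96. The higher ones also included Clu, Ly6a and Anxa1, which the regenerative list holds too, and F3, which the YAP list holds too. No gene of 16 in the Notch pathway was 2-fold from WT. Its median was -0.03, or 0.10 after scaling to the same sum, with Notch1 at 2.62 and 5.89 and the ligand Dll4 at 5.29 and 2.5.

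Of the hormone genes of enteroendocrine cells, which secrete into the blood, 1 of 10 was at least 2-fold higher and none lower. All 10 tested hormone genes had a ratio above 0, with a median of 0.78 and the highest of the 6 values in VEMD3 for 7. Gcg, proglucagon, which was the higher member, was at 35.9 FPKM in WT and 83.6 in VEMD3, with 68.1, 23.4, 1.24 and 0.67 in VEMD2, VEMD4, VEMD6 and VEMD8. Gip was at 121 and 228, Sst, somatostatin, at 28.1 and 46.9 and Cck at 33.9 and 49.5, all under 2-fold. Of 12 tested fate factors and granule genes 5 were at least 2-fold higher, or 2 after scaling to the median gene. Chga, the granule protein chromogranin A, was at 34.8 and 74.3, with 46.3, 18.8, 10.2 and 3.39 in the other knockouts, and Chgb at 60.5 and 139. The fate factor Neurog3 was at 2.63 in WT and 1.49 in VEMD3.

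Paneth cells, which secrete antimicrobial proteins at the crypt base, had levels near or somewhat below WT. Lyz1, lysozyme, was at 4233 FPKM in WT and 4289 in VEMD3, with 6844, 1875, 489.9 and 896 in VEMD2, VEMD4, VEMD6 and VEMD8, and Mmp7, which activates defensins, at 151 and 214. Of 18 tested genes in the Paneth list, which leaves out defensins, 2 were at least 2-fold lower, with a list median of -0.23. They were Reg3a, a lectin, at 33.9 and 3.60 and Guca2b, uroguanylin, at 282 and 131. Guca2b did not follow the list in VEMD6, where it was at 300 FPKM and the list median was -2.52. Among 24 tested alpha-defensins, which are near copies whose reads may be split, 18 had a ratio below 0 and the median was -0.66, with 2 at least 2-fold lower (5 after scaling to the median gene) and 1 higher, and with Defa31 at 6478 and 3538. The list summed to 37081 FPKM in WT and 23055 in VEMD3.

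Goblet cell genes, which make mucus, had 3 of 23 tested members at least 2-fold lower and 1 higher, with a median of -0.17. Zg16, a lectin of mucus, was at 1659 FPKM in WT and 532 in VEMD3, with 1095, 2249.6, 83.7 and 107 in VEMD2, VEMD4, VEMD6 and VEMD8. Muc2, the main mucin, was at 104 and 150.3 and Tff3 at 1462 and 937. The higher member was Retnlb, a resistin-like antimicrobial protein, at 0.41 and 3.10.

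**Figure D4:**
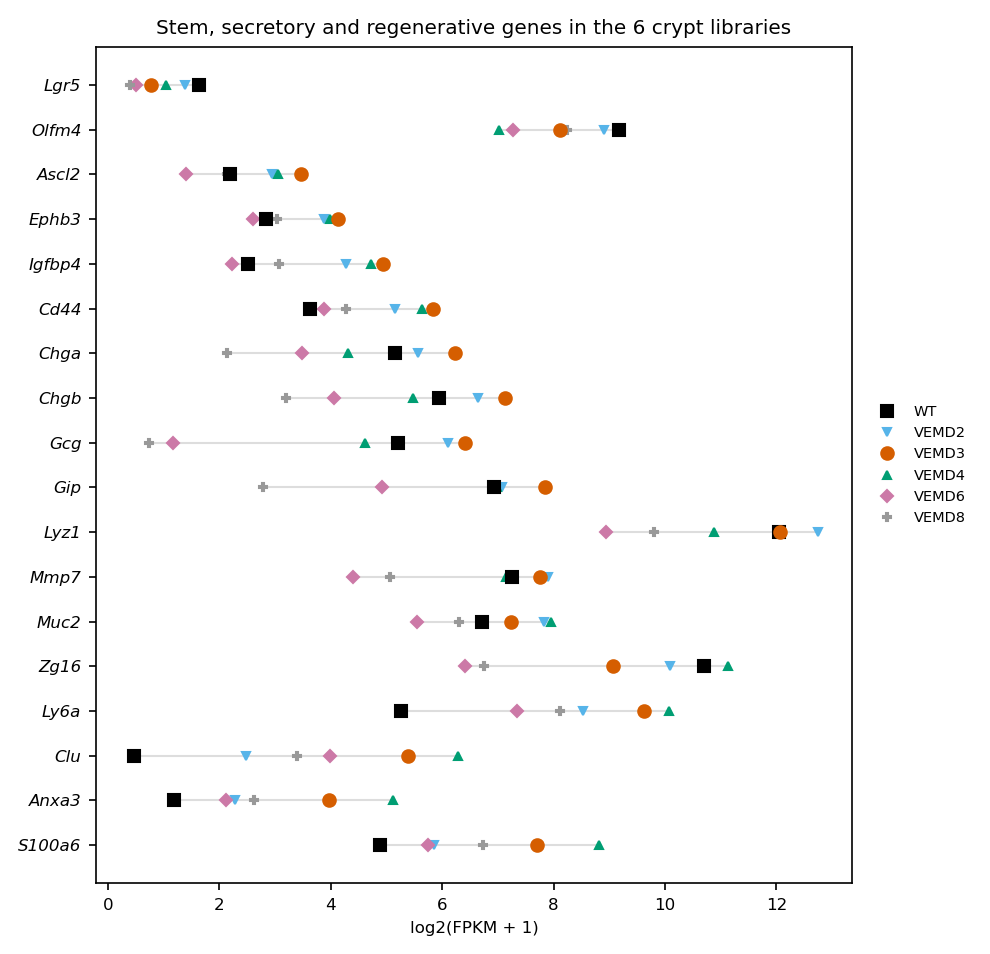
Levels of 18 genes of stem cells, secretory cells and regenerating epithelium in the 6 crypt libraries, as log2(FPKM + 1), 1 point per library. VEMD3 lies to the right of WT for Ascl2, Chga and Ly6a and to the left for Lgr5, Olfm4 and Zg16, while Lyz1 is nearly equal in both.

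Interferon-stimulated genes, which block viral replication, were partly higher. Of 51 tested antiviral members, 16 were at least 2-fold higher and none lower, with a median of 0.62, and VEMD3 held the highest of the 6 values for none. Mx1, a GTPase that traps viral particles, was at 1.58 FPKM in WT and 20.6 in VEMD3, with 6.66, 36.4, 2.20 and 2.15 in VEMD2, VEMD4, VEMD6 and VEMD8. Bst2, tetherin, was at 33.1 and 153, Ifit3 at 3.19 and 11.8 and Isg15, a ubiquitin-like modifier, at 72.04 and 163. Of 10 tested members of the OAS family and RNase L 6 were higher and none lower (median 1.14). Oas2, which senses double-stranded RNA, was at 1.35 and 13.8, with 4.79, 43.8, 2.06 and 8.60 in the other knockouts. For Mx1 and Oas2 VEMD4 was highest and VEMD3 next.

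Ifit3 is shown because its promoter window holds the interferon element more than once. The motif, GAAA repeated after 2 unspecified bases, was searched on both strands, without removal of overlaps, and its 2 matches in the window chr19:34583279-34583578 on the plus strand (RefSeq, GRCm38.p6) are in capitals.
Ifit3: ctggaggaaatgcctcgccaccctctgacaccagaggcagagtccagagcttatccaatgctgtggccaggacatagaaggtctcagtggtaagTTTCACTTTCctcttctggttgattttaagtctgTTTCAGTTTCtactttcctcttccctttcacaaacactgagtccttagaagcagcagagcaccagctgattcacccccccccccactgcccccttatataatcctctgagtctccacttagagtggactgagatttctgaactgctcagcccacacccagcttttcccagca
A match was found in 3.92% of the windows of tested genes, 6.43% of those at least 2-fold higher in VEMD3 and 5.49% of those at least 2-fold lower. It was found in 21 of 46 antiviral and OAS members with a window, among them Bst2, Ifit3, Isg15, Oas1a and Slfn5.

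Among 16 GTPases induced by interferon gamma 3 were at least 2-fold higher and 3 lower, or 3 and 5 after scaling to the median gene, with a median of -0.48 and 11 ratios below 0. Gbp9, Gbp4 and Gbp10, neighbours and near copies on chromosome 5, were at 2.42, 7.98 and 3.57 FPKM in WT and 9.47, 23.4 and 10.8 in VEMD3. Igtp was at 258 and 97.6 and Ifi47 at 105 and 45.6. Genes of antigen presentation on MHC class II, which show peptides to helper T cells, were at least 2-fold lower in 4 of 13 and higher in none, with a median of -0.67. H2-Aa and H2-Ab1, the 2 chains of the I-A molecule, were at 787 and 315 and at 1005 and 452 in WT and VEMD3, and Ciita, their transactivator, at 14.4 and 8.72. For MHC class I 5 of 26 were lower and 1 higher (median -0.57), with B2m, the shared light chain, at 2041 and 1038.

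The gasdermin C genes were far lower, and Gsdmc4 and Gsdmc2 had the lowest ratios of all tested genes. Gsdmc4 was at 82.5 FPKM in WT and 0.23 in VEMD3, with 5.19, 0.06, 0.06 and 0 in VEMD2, VEMD4, VEMD6 and VEMD8. Gsdmc2 was at 51.8 in WT and at a listed value of 0 in VEMD3, and Gsdmc3 was at 15.6 and 0.11. The 3 genes are near copies in a row on chromosome 15 and encode pore-forming proteins of epithelial cells. Pycard, the adaptor of inflammasomes, was at 185 and 52.3 and Gsdmd, the gasdermin cut by inflammasome caspases, at 116 and 77.0.

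For genes of necroptosis, a death pathway run by RIPK3 and MLKL and named in the study's title, RNA levels were near WT. Activity of the pathway was not measured in these data. Mlkl, the membrane executioner, was at 20.5 FPKM in WT and 32.1 in VEMD3, with 28.0, 41.5, 34.3 and 32.6 in VEMD2, VEMD4, VEMD6 and VEMD8. Ripk3, its kinase, was at 40.8 and 54.1, with 61.7, 47.0, 46.0 and 39.3 in the other knockouts, and Casp8, which blocks the pathway, at 56.2 and 73.7. Of 19 tested genes 2 were at least 2-fold higher and none lower. The list median was 0.01, or -0.11 after scaling to the median gene. The 2 higher genes were Tnf, at 1.19 and 4.25, and Hsp90aa1, at 245 and 502, which fell short of 2-fold (0.90) when scaled to the median gene. In apoptosis, 4 of 24 genes were lower and 1 higher, with the effector caspase Casp6 at 107 in WT and 26.8 in VEMD3.

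Cytokines and mucosal defence genes differed in both directions. Ccl25, which attracts T cells to the gut, was at 486 FPKM in WT and 135 in VEMD3, and Ccl24 at 9.01 and 0.38, while Cxcl10, induced by interferon, was at 4.53 and 15.2. Sting1, the adaptor of cytosolic DNA sensing, was at 2.99 and 11.6. Nox1, an epithelial oxidase, was at 9.68 and 47.9, with 23.4, 41.9, 14.0 and 16.1 in VEMD2, VEMD4, VEMD6 and VEMD8. Dmbt1, a scavenger receptor of mucus, was at 566 and 72.6, and Pigr, which carries IgA into the lumen, at 1311 and 369. Reg3b, a lectin against bacteria, reached 1687 in WT but 434 in VEMD3, against 525, 2051, 389 and 9734 in the other knockouts, so VEMD3 was low and VEMD8 far above WT.

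Heat shock chaperones were at least 2-fold higher in 8 of 22 tested members and lower in 1, with a median of 0.77 and the highest of the 6 values in VEMD3 for 14. Hsph1, of the HSP110 family, was at 21.5 FPKM in WT and 179 in VEMD3, with 83.9, 114, 75.8 and 94.5 in VEMD2, VEMD4, VEMD6 and VEMD8. Hspa1a and Hspa1b, near copies that encode HSP70, were at 1.89 and 3.69 in WT and 28.2 and 62.8 in VEMD3, and Hspa8, the constitutive form, at 954 and 2415. The lower member was Hspa12a, at 5.86 and 1.5. Hsph1 is shown because it had the third largest ratio of the list and its window, chr5:149636287-149636586 on the minus strand (RefSeq, GRCm38.p6), holds the heat shock element, GAA, TTC and GAA each set 2 unspecified bases apart, which reads in capitals on the other strand.
Hsph1: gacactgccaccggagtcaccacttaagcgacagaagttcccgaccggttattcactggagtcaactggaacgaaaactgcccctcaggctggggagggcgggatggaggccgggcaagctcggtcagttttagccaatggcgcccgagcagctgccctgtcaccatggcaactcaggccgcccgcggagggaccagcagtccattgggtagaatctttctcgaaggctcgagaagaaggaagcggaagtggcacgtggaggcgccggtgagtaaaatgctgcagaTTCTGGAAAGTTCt
The element, searched on both strands, occurred in 0.579% of the windows of tested genes, 0.975% of those of the higher genes and 0.998% of those of the lower genes, and in 4 of 16 chaperones with a window, namely Chordc1, Hspd1, Hspe1 and Hsph1.

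Chaperones of the endoplasmic reticulum were higher in 5 of 25 and lower in none, or 3 when scaled to the median gene, with a median of 0.49. Hspa5, the chaperone BiP, was at 416 FPKM in WT and 924 in VEMD3, with 704, 742, 1143 and 2277 in VEMD2, VEMD4, VEMD6 and VEMD8. Targets of ATF4, the factor of the integrated stress response, had 6 of 28 higher and 1 lower (median 0.44). Psat1 and Phgdh, which make serine, were at 10.4 and 17.8 in WT and 37.8 and 58.5 in VEMD3. Asns, asparagine synthetase, was at 30.9 and 58.6, under 2-fold. The lower ATF4 target was Cth, of cysteine synthesis, at 52.1 and 16.9.

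A list of SETDB1 partners, the HUSH silencing complex and proteins that read methylated lysine 9 was above WT in all 19 tested members. Of these, 5 were at least 2-fold higher, or 4 after scaling to the median gene, with a median of 0.47. Resf1, which supports silencing of retroelements, was at 15.5 FPKM in WT and 82.0 in VEMD3, with 48.1, 119, 69.3 and 70.5 in VEMD2, VEMD4, VEMD6 and VEMD8. Atf7ip, which stabilises SETDB1, was at 9.06 and 24.9, and Zfp809, which targets retroviral DNA, at 13.7 and 40.4. Trim28 was at 59.1 and 74.6, a ratio of 0.33. Of 269 tested Zfp zinc finger genes 20 (7.43%) were at least 2-fold higher, a share near the 6.00% of all tested genes, and 1 was lower, with a median of 0.20 against 0.12 for all tested genes. Zfp972 was at 11.2 in WT and 187 in VEMD3, with 22.6, 149.5, 320.0 and 524 in the other knockouts, and Zfp990 at 0.04 and 7.43. Zfp385a, a zinc finger protein that acts with p53, was at 0.47 and 15.6.

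Germline genes are among those that histone methylation keeps silent in body tissues. In this list 4 of 10 tested genes were 2-fold or more above WT and none below, but 7 of the 10 were under 1 FPKM in WT and entered through knockout libraries. Khdc1a, of an oocyte family, was at 0.16 FPKM in WT and 25.3 in VEMD3, with 4.99, 69.6, 12.5 and 29.9 in VEMD2, VEMD4, VEMD6 and VEMD8. Tex19.1, a germ cell gene, had a listed value of 0 in WT against 4.54 in VEMD3.

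Genes of oxidative phosphorylation, which makes ATP in mitochondria, were below WT in 74 of 76 tested members, by small amounts. The median ratio was -0.58 and 2 were at least 2-fold lower and 1 higher, or 5 lower after scaling to the median gene. Cox7a1, a subunit of cytochrome oxidase, was at 129 FPKM in WT and 23.7 in VEMD3, and Sdhb, of succinate dehydrogenase, at 278 and 142. Cytosolic ribosomal proteins were near WT, with no gene of 78 at 2-fold and a median of -0.01 (0.12 when scaled to the same sum), and Rplp0 was at 1414 and 1646.

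Differences of 2-fold stood in rows along the chromosomes in 24 places, 13 higher with 51 genes and 11 lower with 33, each of at least 3 neighbouring tested genes. On chromosome 9, 46228630 to 46243458, Apoa1, Apoc3 and Apoa4 were at 2643, 432 and 3196 FPKM in WT and 939.9, 108 and 1039.9 in VEMD3. On chromosome 3, 138277585 to 138432683, Adh1, Adh6a and Adh4 had ratios of -2.59, -2.66 and -2.03. On chromosome 15, 74955025 to 75048920, Ly6e, Ly6a and Ly6c1 were higher. Clu, Gulo and Adam2 formed a row on chromosome 14, 65968483 to 66077851, with Gulo, an enzyme of vitamin C synthesis, at 2.20 and 22.7. Rows of this kind hold families such as Oas1, Gbp, Gsta and Reg3, whose members share sequence as well as position.

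Other large single differences were found. Eno1b, listed with glycolysis genes and a near copy of the enolase gene Eno1, had the highest ratio, 5.91, at 0.62 FPKM in WT and 96.7 in VEMD3, a value that is uncertain because reads of both genes are hard to tell apart. Atg9b, a lipid scramblase of autophagy, was at 0.12 and 32.4, with 4.99, 34.3, 0.82 and 1.42 in VEMD2, VEMD4, VEMD6 and VEMD8. Cd84, of the SLAM receptors, was at 2.41 and 76.2, Mboat1, an acyltransferase of phospholipids, at 7.15 and 106 and Crip2, a LIM protein, at 0.24 and 22.3. Arg2, mitochondrial arginase, was at 131 in WT and 2.71 in VEMD3, with 23.2, 2.82, 98.0 and 43.5 in the other knockouts, so VEMD3 and VEMD4 were lowest. Pmp22, a membrane protein, was at 116 and 6.82, Pck1, of gluconeogenesis, at 24.99 and 1.86 and Gvin1, an interferon-inducible GTPase with near copies, at 70.6 and 1.33.

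VEMD3 had few genes that stood apart from all other crypt libraries. Afp, alpha-fetoprotein, was the only tested gene at least 2-fold above each of the other 5 libraries (0.00921%), at 11.04 FPKM against 1.60 in WT and 3.33, 3.00, 3.92 and 0.35 in VEMD2, VEMD4, VEMD6 and VEMD8. Tuba1a, an alpha-tubulin with near copies, was the only tested gene at least 2-fold below each of them, at 7.96 against 40.3, 55.6, 54.4, 37.4 and 38.4 in WT, VEMD2, VEMD4, VEMD6 and VEMD8. In 318 of the 652 higher genes VEMD3 held the highest value, against 28.4% of all tested genes. It held the lowest in 227 of the 502 lower genes, against 7.99%. Both sets were chosen by the ratio of VEMD3 to WT, which by itself favours such ranks.

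The 2-fold genes whose mean over the 6 libraries reached 5 FPKM, which that of Afp did not, were ranked by distance from the nearest other knockout. The 15 farthest above included the p53 targets Plk2, Ephx1, Psrc1, Trp53inp1, Ccng1 and Gtse1, with Hsph1, Slc1a4, a carrier of neutral amino acids at 3.48 FPKM in WT and 23.9 in VEMD3, and Cd22, at 0.89 and 18.0. The 15 farthest below included, besides Tuba1a, Rbp2, Fabp1, Fabp2, Enpep, Creb3l3, Slc51b, Ggt1 and Anpep of absorptive cells, and Smim24, a small membrane protein, at 966 and 206. All 5 ratios to WT share the WT library, so they are not independent of each other.

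**Figure D5:**
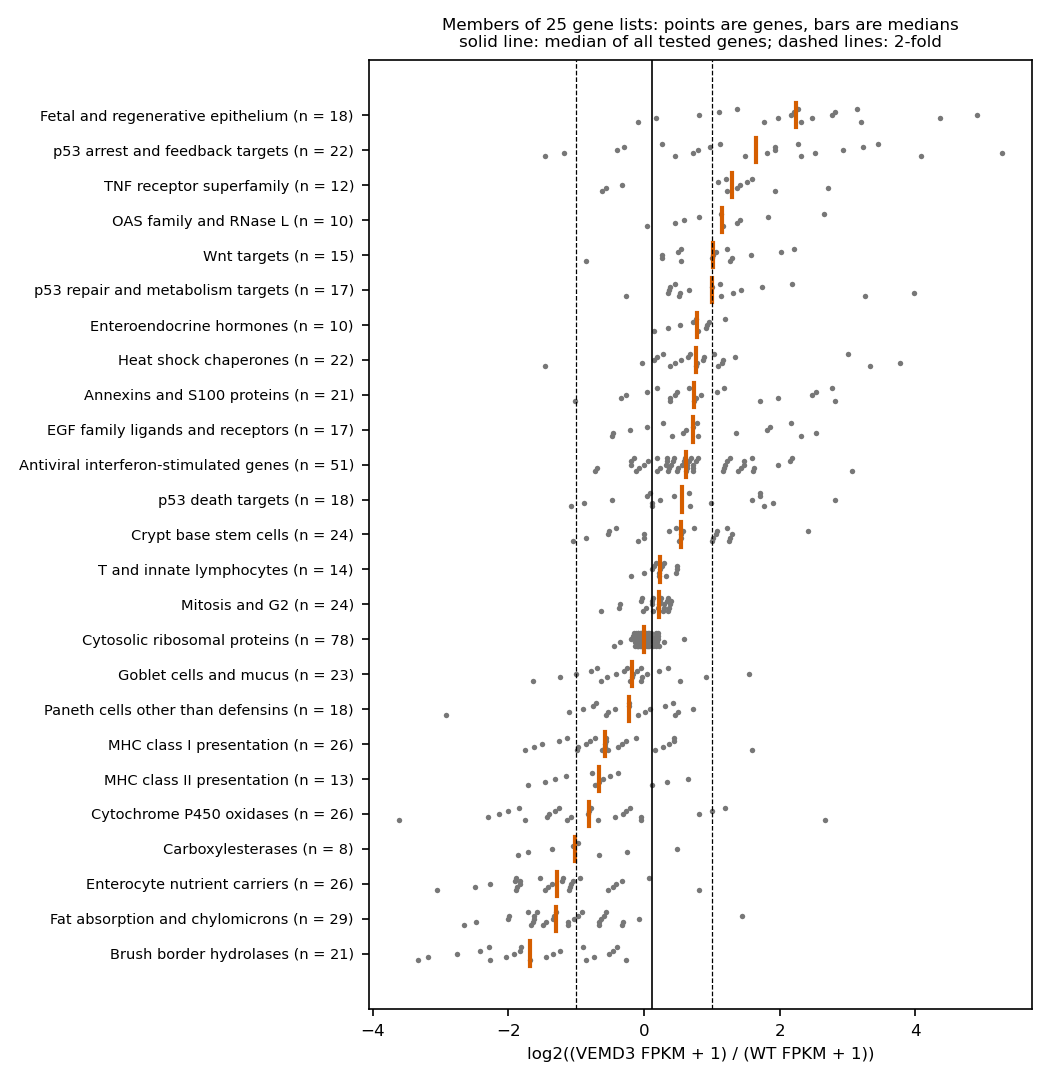
Log2 ratios of VEMD3 to WT for the tested members of 25 gene lists, 1 grey point per gene, with the list median as an orange bar. The solid line is the median of all tested genes (0.12) and the dashed lines mark 2-fold, with list medians running from -1.69 for hydrolases of the brush border to 2.24 for fetal and regenerative epithelium.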

How the data were processed

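RNA of crypts was sequenced on a BGI-500 per the labels' protocols, 1 library per group. The authors deposited FPKM per gene with 2 decimals, a unit named per the file headers. The submitters' processing notes list the builds GRCm38 and mm10 and the tools featureCounts, HISAT2 and edgeR, without versions or roles. Of 20718 lines, 16958 held values, and 16916 of these genes got a symbol by identifier from the RefSeq table of GRCm38.p6. Repeat values, including 2 columns of per-sample values, and stem cell data were not used here.

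The log2 ratio was taken with a pseudocount of 1 FPKM where the mean over the 6 crypt libraries reached 1 FPKM, and a gene at least 2-fold from WT counted as higher or lower. It understates the change of low genes. Depth is unknown and steps of whole reads could not be read from low values, so no interval is given. Calculations used Python 3.11.15, numpy 2.4.6 and pandas 2.3.3, and the counting rule was tested on simulated data.

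The members and the gene lists were chosen with earlier results of these data known, and symbols of a few list members were corrected after the files were read. Named genes are Setdb1, the 25 highest and 25 lowest with a mean of at least 5 FPKM, up to 6 members per list by size of ratio, the 15 farthest above and below the other knockouts (2-fold genes whose mean reached 5 FPKM), and rows of at least 3 neighbours. Other genes, such as Lgr5, Lyz1, Muc2, Neurog3 and Afp, were chosen for their role or after their values were seen. Alternatives were a pseudocount of 0.1 or 5 FPKM, 3 other filters and 2 scalings.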

Additional observations from a re-analysis of the deposited data

How the results depend on the processing

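No paired analysis was possible because WT and VEMD3 crypts are 1 library apiece. With a pseudocount of 5 FPKM, 258 genes were at least 2-fold higher and 319 lower, since it shrinks the ratios of low genes, and the ratio of Setdb1 was -0.26. Setdb1 was at -0.50 with libraries scaled to the median gene and at -0.27 when scaled to the same sum. Under the other alternatives run, both counts stayed within 1.5 times their values. Of 390 named genes that were 2-fold from WT, 267 stayed so with the pseudocount of 5. The number was 366 with scaling to the median gene and 377 with scaling to the same sum. Each value rests on 1 library of unknown depth.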

Other observations

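Keratins and junction genes outside the groups above also differed. Krt18, which pairs with Krt8 in simple epithelium, was at 174 FPKM in WT and 585 in VEMD3, and Krt20, of differentiated enterocytes, at 775 and 308. Cldn2, a leaky claudin of crypts, was at 74.3 and 181, with 158, 169, 118 and 166 in VEMD2, VEMD4, VEMD6 and VEMD8, while Cldn15, another pore-forming claudin, was at 288 and 158. Ppl, periplakin, was at 2.04 and 13.8. Among exporters of the ABC family 4 of 27 were at least 2-fold higher and 4 lower, with Abcb1b at 0.01 and 5, Abcc4 at 0.46 and 7.92 and Abcc1 at 2.51 and 11.3 against Abcg5 at 79.7 and 25.1 and Abcg2 at 47.99 and 16.2.

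Esr1, the oestrogen receptor that tamoxifen binds, was at 0.05 FPKM in WT and 4.24 in VEMD3, with 5.19, 4.74, 4.81 and 2.81 in VEMD2, VEMD4, VEMD6 and VEMD8. The VEMD3 crypts carried the Cre switched on by tamoxifen, and whether reads of that construct were counted as Esr1 was not tested. Fkbp5, induced by glucocorticoids, was at 5.40 and 27.0, while Tsc22d3, also induced by them, was at 21.2 and 9.91. Per1, of the circadian clock, was at 4.19 and 11.01. H1f0, the linker histone of resting cells, was at 210.3 and 66.7, and Cdkn2b, which encodes the inhibitor p15, at 51.9 and 14.0. Clps, pancreatic colipase, was at 135 and 56.4.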
